A study of Mus musculus with 8 samples.

Results

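R-spondin receptors and the membrane RING ligases they control were examined in intestinal crypts of mice with and without Mex3a. The set held 4 genes, chosen by name from the 55114 genes of the deposited table: the receptors Lgr4 and Lgr5, and the E3 ubiquitin ligases Rnf43 and Znrf3. Crypts, the epithelial pockets that hold the intestinal stem cells (ISCs), were shaken off with EDTA from intestines of 4 constitutive Mex3a KO mice (Mex3a-/-, called KO) and 4 littermate controls (Ctrl, called WT), all 8-week-old C57BL/6 animals, for bulk RNA sequencing. The KO allele lacks the first exon and part of the second exon of Mex3a in every cell of the body, so that the epithelium is not the only tissue without the gene. The study asked whether MEX3A, an RNA-binding protein, sustains stemness and WNT signalling, and these 4 genes sit at the WNT receptor step.

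WNT ligands signal through Frizzled receptors with LRP5 or LRP6 as co-receptors. RNF43 and ZNRF3 ubiquitinate Frizzled receptors and so remove them from the cell surface. R-spondins bind LGR4 or LGR5 together with RNF43 or ZNRF3, which clears the ligases from the membrane and leaves more Frizzled in place. In the intestine LGR5 marks the crypt base columnar stem cells, LGR4 is made more widely in the crypt, and Rnf43 and Znrf3 are themselves WNT target genes, which makes them negative feedback regulators. R-spondins are made mainly by mesenchymal cells around the crypt.

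Between 20324184 and 24726221 reads were counted on genes per WT mouse and between 23489180 and 30654105 per KO mouse. Mex3a had 236 to 328 counts in WT mice and 6 to 28 in KO mice, which matched the labels (log2 fold change -4.43, standard error 0.43, edgeR adjusted p = 0.031). It was the 1 gene of 16109 tested with an adjusted p under 0.05, a share of 0.00621%, and DESeq2 gave 93 such genes. No gene, Mex3a included, passed in edgeR with the replicate number as a block or in 6 of the 8 edgeR fits that left out 1 mouse. In both genotypes Ddx3y, a gene of the Y chromosome, was read in replicates 1 and 2, and Xist in replicates 3 and 4. The epithelial marker Epcam stood at 702 to 775 FPKM, while 12 markers of stromal cells summed to 1.49 to 3.48 FPKM per mouse. FPKM values, which correct a count for gene length and library size, were used to compare levels between genes, and CPM values, which correct it for library size alone, to compare one gene between mice.

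All 4 genes passed the filter on low counts. In GRCm38 coordinates Lgr4 lies at chr2:109917647-110014257 on the plus strand, Lgr5 at chr10:115450311-115587780 on the minus strand, Rnf43 at chr11:87662722-87735539 on the plus strand, and Znrf3 at chr11:5276324-5444847 on the minus strand. None of them shares an annotated exon base with another gene in GENCODE M21. Counting error was small beside the spread between mice, since the scarcest gene, Znrf3, still had 617 to 969 counts per mouse.

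The study looked for MEX3A targets by a recognition element in RNA, a first block of the form NNAG and a second block of the form TNTA with 0 to 8 bases between them, where some bases are barred at N. It was searched on the transcript strand only, in the 3'UTR of each gene's longest coding transcript. The shortest match was kept at each start base, and matches from different start bases could overlap. The match with the shortest gap in the 3'UTR of Lgr5, Rnf43 and Znrf3 is printed here in a 30-base window, because this is the element by which the study sought targets of the deleted protein. Capitals mark both blocks of the element, and sequences are from GENCODE M21 with T for U.
Lgr5, chr10:115451580-115451609, minus strand, exon 18: atgttgcccacAGAGTTTAgttttaatggc
Rnf43, chr11:87734711-87734740, plus strand, exon 10: caaaagaagaaGGAGTTTAggtgagcccca
Znrf3, chr11:5277231-5277260, minus strand, exon 9: atcagaagaaATAGtgTCTAtgaagttctg

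These 3 messages differed in how many matches they carried. The Lgr5 3'UTR of 1703 bases held 11 matches, or 6.46 per 1000 bases. The Znrf3 3'UTR of 3400 bases held 9, and the Rnf43 3'UTR of 1339 bases held 1. Of 13004 tested genes with a 3'UTR, 74.2% held at least 1 match. The median number of matches among 3'UTRs within 10% of the same length was 4 for Lgr5 (range 0 to 19), 9 for Znrf3 and 3 for Rnf43, so that Lgr5 lay above and Rnf43 below the middle of messages of their length. A match is a run of letters and not a measured binding site.

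Lgr4, the more broadly made of the receptors, was the most abundant of the 4 genes. Its level in WT replicates 1 to 4 was 37, 32.3, 31.6 and 35.9 FPKM, and in KO replicates 1 to 4 it was 23.7, 32.2, 33.9 and 30.2 FPKM. The genotypes overlapped, and KO replicate 1 stood below all other mice. Mean levels were 34.2 ± 2.66 FPKM in WT and 30 ± 4.44 FPKM in KO (SD, n = 4 each).

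Lgr5, the stem cell receptor, was at 9.96, 6.06, 7.32 and 10.6 FPKM in WT replicates 1 to 4. In KO replicates 1 to 4 it was at 5.36, 4.35, 6.35 and 8.07 FPKM. The ranges overlapped again, and WT replicates 1 and 4 were the only mice above 9 FPKM. Mean levels were 8.48 ± 2.14 FPKM in WT and 6.03 ± 1.59 FPKM in KO (SD, n = 4 each). Lgr5 was also the most variable of the 4 genes, with a coefficient of variation of CPM of 25.5% in WT and 26.4% in KO, where the other three lay between 8.24% and 15%. Its biological coefficient of variation in the edgeR fit was 0.23, above the 0.161 usual for genes of its abundance, while those of Lgr4, Rnf43 and Znrf3 (0.143, 0.136 and 0.133) were below the trend at their own abundance.

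Rnf43, the more abundant ligase, stood at 23.7, 17.3, 20.5 and 22 FPKM in WT replicates 1 to 4. The KO values were 17.8, 15, 18.3 and 18.3 FPKM. WT replicate 2 lay among the KO mice, and the other three WT mice lay above all of them. Mean levels were 20.9 ± 2.72 FPKM in WT and 17.4 ± 1.59 FPKM in KO (SD, n = 4 each).

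Znrf3, the scarcer ligase, was at 4.97, 3.92, 4.38 and 4.34 FPKM in WT replicates 1 to 4 and at 3.54, 3.33, 3.37 and 4.07 FPKM in KO replicates 1 to 4. The genotypes overlapped only through KO replicate 4, which was above WT replicate 2. Mean levels were 4.4 ± 0.432 FPKM in WT and 3.58 ± 0.342 FPKM in KO (SD, n = 4 each).

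**Figure D1:**
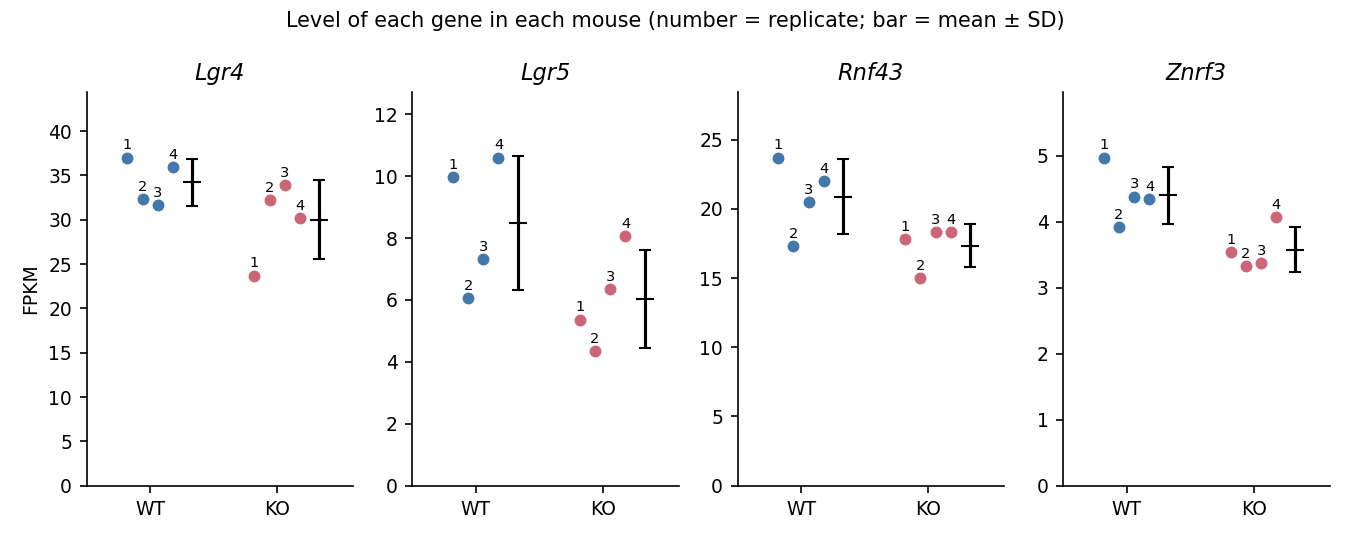
FPKM of Lgr4, Lgr5, Rnf43 and Znrf3 in each of 4 WT (blue) and 4 KO (red) mice, with the replicate number above each point and a black bar for the mean and SD of the genotype. Each gene has its own axis, which starts at 0. The KO mean is the lower one for all 4 genes, and the genotypes overlap in each.

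The order of levels was Lgr4, Rnf43, Lgr5, Znrf3 in all 8 mice. Lgr4 was 1.33 to 2.15 times Rnf43 within a mouse, although the lowest Lgr4 value over all mice and the highest Rnf43 value were both 23.7 FPKM. Rnf43 and Lgr5 did not meet, with a lowest Rnf43 of 15 FPKM against a highest Lgr5 of 10.6. The ranges of Lgr5 and Znrf3 overlapped over all mice but not within a genotype, and Lgr5 was 1.31 to 2.43 times Znrf3 within a mouse.

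In FPKM the receptors outnumbered the ligases in each mouse. The sum of Lgr4 and Lgr5 was 42.7 ± 4.68 in WT and 36 ± 4.86 in KO, and the sum of Rnf43 and Znrf3 was 25.3 ± 3.13 in WT and 20.9 ± 1.79 in KO (SD, n = 4 each). Receptor over ligase was 1.63, 1.8, 1.56 and 1.76 in WT replicates 1 to 4 and 1.36, 1.99, 1.85 and 1.71 in KO replicates 1 to 4, so that the KO mice spread on both sides of the WT mice. Lgr5 made up 11.9% to 22.7% of the receptor FPKM, and Rnf43 made up 81.6% to 84.5% of the ligase FPKM.

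All 4 genes were lower in KO crypts, and none passed the adjusted threshold. The log2 fold change of KO over WT was -0.20 for Lgr4 (standard error 0.12), -0.50 for Lgr5 (0.22), -0.28 for Rnf43 (0.11) and -0.31 for Znrf3 (0.10). The unadjusted p of edgeR's quasi-likelihood test was 0.122 for Lgr4, 0.0493 for Lgr5, 0.0325 for Rnf43 and 0.0145 for Znrf3. In linear terms the KO level was 0.872, 0.707, 0.826 and 0.807 of the WT level. After Benjamini-Hochberg adjustment over 16109 genes the edgeR p-values were 0.675, 0.592, 0.557 and 0.518. With an unadjusted p under 0.05 and a lower level in KO stood 3 of the 4 genes, against 491 of all genes tested (3.05%). No member had every KO mouse below every WT mouse, which 1.87% of all genes had. Over all genes, 53.9% were lower in KO and the median log2 fold change was -0.016. In bulk crypts, fewer cells of a type and less RNA per cell cannot be told apart.

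The unadjusted p of Znrf3 stayed under 0.05 in 18 of 18 alternative settings, that of Rnf43 in 14, that of Lgr5 in 8 and that of Lgr4 in 0. The adjusted p stayed above 0.05 for the 4 genes in each of them. The unadjusted p of Lgr5 lay at the threshold. With all 8 mice it was 0.051 with RLE factors, 0.0516 with at least 10 counts in every mouse, 0.0609 with robust edgeR and 0.0645 and 0.0622 with limma on log2(FPKM + 1) and log2(FPKM + 0.1). Leaving out WT replicate 1 took the p of Lgr5 to 0.124, leaving out WT replicate 4 took it to 0.135, and it was 0.11, 0.12 and 0.0682 when KO replicate 1, 2 or 3 was left out. The p of Rnf43 was 0.0932, 0.0513 and 0.0749 when WT replicate 1, 3 or 4 was left out, and 0.0877 when KO replicate 2 was. The Lgr4 fold change depended most on KO replicate 1, without which it was -0.10.

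**Figure D2:**
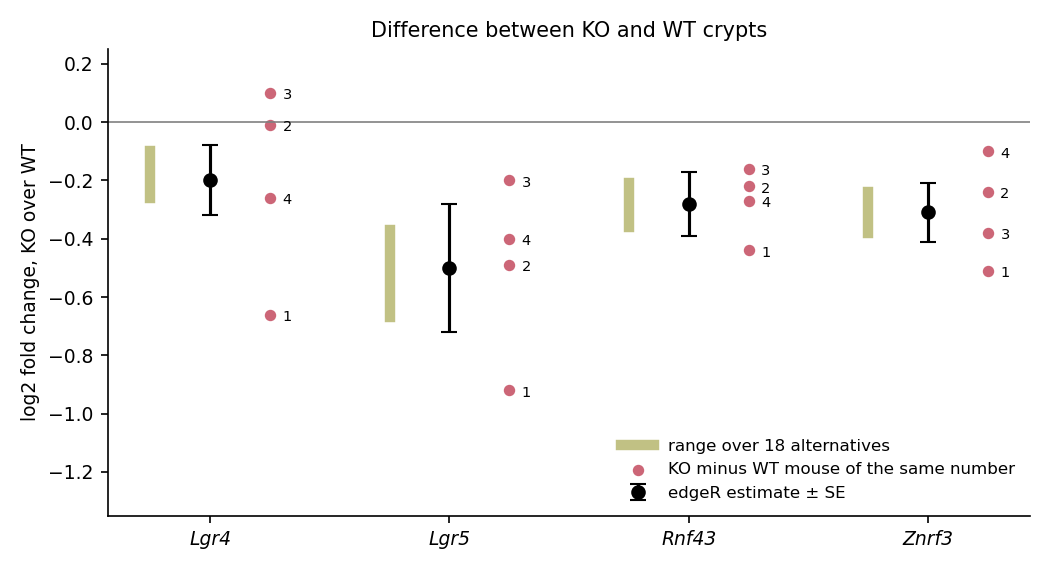
Log2 fold change of KO over WT for the 4 genes. Black points with bars are the edgeR estimate and its standard error, olive bars span 18 alternative settings, and red points are the difference in log2 CPM between the KO and the WT mouse of the same replicate number, which is printed beside each. The estimates run from -0.50 for Lgr5 to -0.20 for Lgr4, and 1 of the 16 red points, replicate 3 of Lgr4, lies above 0.

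Mice of the same replicate number deviated together and share their sex, so differences were also taken within numbers. On log2 CPM, Lgr5 was lower in the KO mouse by 0.92, 0.49, 0.20 and 0.40 in replicates 1 to 4. For Rnf43 these differences were -0.44, -0.22, -0.16 and -0.27, and for Znrf3 they were -0.51, -0.24, -0.38 and -0.10. Lgr4 gave -0.66, -0.01, 0.10 and -0.26. Thus 3 genes were lower in all 4 pairs, as were 9.66% of all genes tested. In a fit with replicate number as a block, the unadjusted edgeR p was 0.00372 for Lgr5, 0.00799 for Rnf43, 0.0138 for Znrf3 and 0.155 for Lgr4, and 4.13% of all genes were lower at an unadjusted p under 0.05. The adjusted p in this paired fit was 0.228, 0.282, 0.317 and 0.601, and no call of the 4 genes changed.

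The difference was present among mice of either sex. Among the 2 Ddx3y mice of each genotype the KO minus WT difference in mean log2 CPM was -0.34 for Lgr4, -0.70 for Lgr5, -0.33 for Rnf43 and -0.38 for Znrf3. Among the 2 Xist mice of each genotype it was -0.08, -0.30, -0.22 and -0.24. Each of these rests on 2 mice against 2 and was not tested. A single-gene exact permutation test on log2 CPM over all assignments of the mice gave two-sided p-values of 0.171, 0.143, 0.114 and 0.0571.

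Whether the members differed from each other in their KO effect was tested by the log2 ratio of their counts within a mouse, from which library size cancels. None of the 6 ratios passed an adjusted p of 0.05 between genotypes (two-sided exact permutation tests, p from 0.229 to 0.714, Benjamini-Hochberg p from 0.686 to 0.714). Lgr4 over Lgr5 was 0.29 higher in KO on the log2 scale, and higher in 4 of 4 pairs of the same number, and with 1 mouse left out it was 0.11 (without KO replicate 2) to 0.44 (without KO replicate 4) higher. Lgr5 over Rnf43 differed by -0.23, with the KO value the lower one in 4 of 4 pairs, and by -0.36 (without KO replicate 4) to -0.14 (without WT replicate 4). An exact sign-flip permutation within pairs gave both ratios 0.125 (two-sided), which is the lowest value 4 pairs can reach, so that this test could not pass 0.05. For the ligases, Rnf43 was 4.78, 4.43, 4.67 and 5.06 times Znrf3 in FPKM in WT replicates 1 to 4, and 5.04, 4.51, 5.44 and 4.49 times in KO replicates 1 to 4. The Lgr4 to Lgr5 ratio varied most, from 3.4 in WT replicate 4 to 7.4 in KO replicate 2.

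Across the 8 mice, Lgr5, Rnf43 and Znrf3 were correlated with each other, while the 3 pairs with Lgr4 had lower r, a difference that was not tested and that had another form within same-numbered mice. The KO minus WT differences of the 4 replicate numbers had r of 0.95 for Lgr5 and Rnf43, 0.54 for Lgr5 and Znrf3 and 0.45 for Rnf43 and Znrf3, against 0.91 for Lgr4 and Lgr5, 0.99 for Lgr4 and Rnf43 and 0.41 for Lgr4 and Znrf3. On those differences it was thus Znrf3 whose r was lower, and with 4 points each these are descriptions. The permutation p-values of the members and of the marker sums treat the 8 mice as exchangeable and leave the replicate numbers out of account. Lgr5 and Rnf43 had a Pearson r of 0.92 on log2 CPM (exact permutation p = 0.00176, Benjamini-Hochberg p = 0.0106 over 6 pairs) and a Spearman rho of 0.88 (exact permutation p = 0.00724, adjusted 0.0435). For Rnf43 and Znrf3 r was 0.88 (exact permutation p = 0.00471, adjusted 0.0141) and rho 0.81 (exact permutation p = 0.0218, adjusted 0.0436). For Lgr5 and Znrf3 r was 0.86 (exact permutation p = 0.00794, adjusted 0.0159) and rho 0.81 (exact permutation p = 0.0218, adjusted 0.0436). The 3 pairs with Lgr4 had r of 0.57 with Lgr5, 0.50 with Rnf43 and 0.50 with Znrf3, with adjusted permutation p-values of 0.208 to 0.214, and rho of 0.33 to 0.57 with adjusted permutation p-values of 0.227 to 0.428. Without KO replicate 2, Lgr4 and Lgr5 had r of 0.74 (exact permutation p = 0.0395, adjusted 0.0592).

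The genotype means enter a correlation over all 8 mice. With each mouse taken as its deviation from the mean of its genotype, r was 0.87 for Lgr5 and Rnf43 (exact permutation p = 0.0104, adjusted 0.0624), 0.78 for Lgr5 and Znrf3 (exact permutation p = 0.0486, adjusted 0.111) and 0.77 for Rnf43 and Znrf3 (exact permutation p = 0.0556, adjusted 0.111). Within WT mice alone these pairs had r of 0.92, 0.75 and 0.94, and within KO mice alone 0.83, 0.82 and 0.52, each over 4 mice and given as a description. Without the 2 mice farthest from the median of the first gene, r was 0.84 for Lgr5 and Rnf43, 0.86 for Lgr5 and Znrf3 and 0.70 for Rnf43 and Znrf3. The last of these, without WT replicate 1 and KO replicate 2, had an exact permutation p of 0.122. As these mice were left out for being farthest in Rnf43, this cannot show that the relation rested on them. The pairs of Lgr4 with Lgr5, Rnf43 and Znrf3 had r of 0.35, 0.20 and 0.13 as deviations and of 0.37, 0.45 and 0.03 without the 2 farthest mice. Without KO replicate 2 alone, Lgr5 and Znrf3 had r of 0.81 (adjusted permutation p = 0.056). For Lgr4 the values within WT mice (0.88, 0.80 and 0.72 with Lgr5, Rnf43 and Znrf3) were higher than within KO mice (0.11, -0.19 and -0.19), a difference that was not tested.

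**Figure D3:**
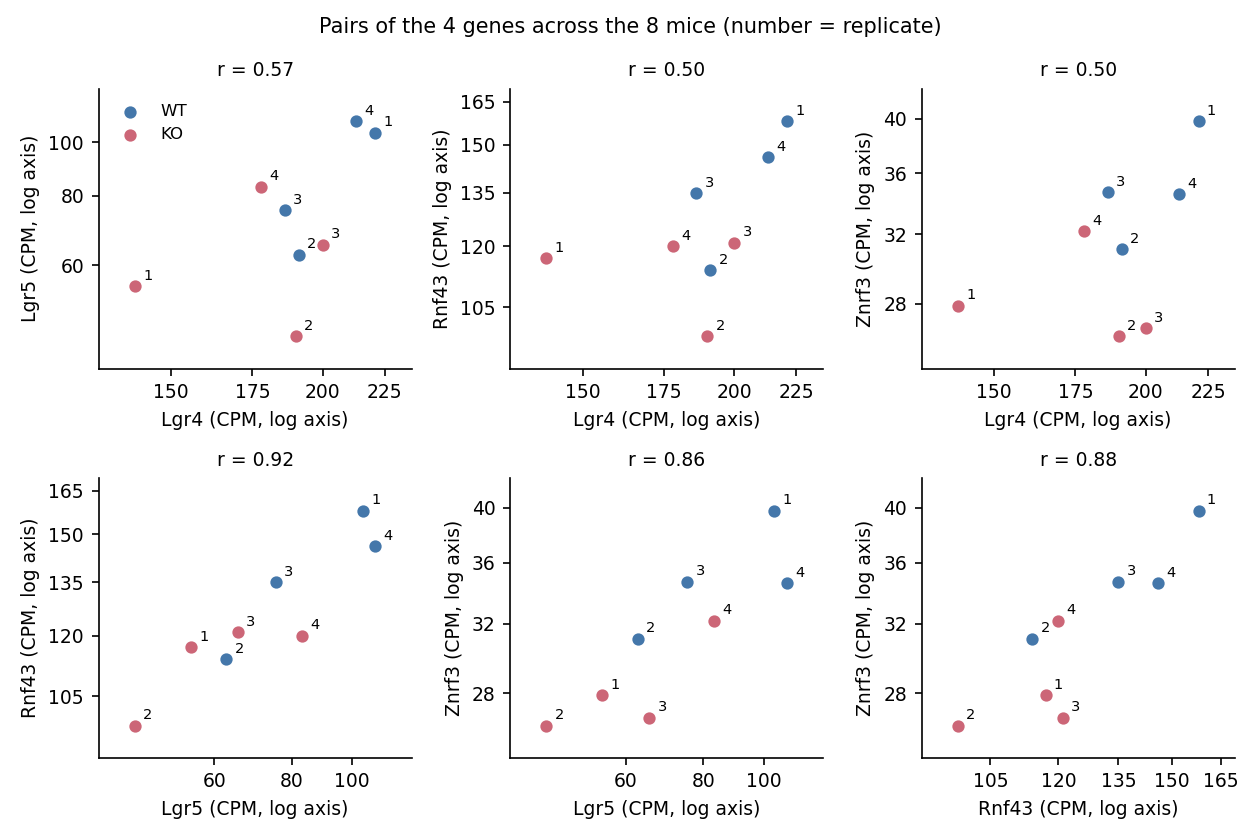
CPM of each pair of the 4 genes in the 8 mice, on log axes, with WT mice in blue, KO mice in red and the replicate number beside each point. The panels of Lgr5, Rnf43 and Znrf3 have r of 0.86 to 0.92, and the 3 panels with Lgr4, where KO replicate 1 stands far to the left, have r of 0.50 to 0.57.

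These correlations were set against all other genes. Among 9511 other protein-coding genes with a mean log2 CPM of at least 3, Rnf43 ranked 28th and Znrf3 98th in Pearson r with Lgr5, and Lgr5 ranked 25th with Rnf43. Lgr4 ranked 1025th with Lgr5, 1552nd with Rnf43 and 1409th with Znrf3. Of the deviations from genotype means, Rnf43 ranked 152nd and Znrf3 469th with Lgr5, and Lgr5 201st with Rnf43, while Lgr4 ranked 2758th with Lgr5, 3584th with Rnf43 and 3618th with Znrf3. The genes most like Lgr5 were Serac1 (r = 0.972), the fatty acid transporter Slc27a1 (0.963), the DNA repair gene Rad51d (0.960), Reg4 (0.959), a secreted lectin of Paneth and enteroendocrine cells, and Syngr1 (0.954). Those most like Rnf43 were BC048403 (0.976), Syngr1 (0.962), Shisa2 (0.959), the Paneth cell defensin Defa5 (0.954) and Reg4 (0.946). Those most like Znrf3 were the ubiquitin ligase Cblb (0.987), Vgll4 (0.953), Nav2 (0.951), Dtx4 (0.947) and Reps1 (0.941), and those most like Lgr4 were Mysm1 (0.977), Zfp292 (0.956), Rin2 (0.932), Rccd1 (0.920) and the G protein subunit Gnaq (0.919). These are the top values of 9511 over 8 mice and are descriptions. No gene was on more than one list except Reg4 and Syngr1, which were on those of both Lgr5 and Rnf43.

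The Paneth genes on these lists varied far more than the members. Reg4 was at 487, 131, 213 and 322 FPKM in WT replicates 1 to 4 and at 101, 45.2, 180 and 228 in KO replicates 1 to 4. Paneth cells sit between the stem cells at the crypt base. The 9 Paneth markers summed to 80512, 23707, 31982 and 45148 FPKM in WT replicates 1 to 4 and to 23432, 12386, 35259 and 47026 FPKM in KO replicates 1 to 4. WT replicate 1 was highest and KO replicate 2 lowest, and the genotypes overlapped. All 9 had negative log2 fold changes (median -0.64), and 0 had an unadjusted p under 0.05.

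Lgr5 followed this sum from mouse to mouse. Between log2 CPM of Lgr5 and the log2 of the Paneth sum r was 0.92 (exact permutation p = 0.00169, Benjamini-Hochberg p = 0.027 over 16 relations, 4 genes by 4 marker lists) and rho 0.90 (exact permutation p = 0.00456, adjusted 0.073). For Rnf43 r was 0.89 (exact permutation p = 0.00387, adjusted 0.031), for Znrf3 0.79 (exact permutation p = 0.0169, adjusted 0.054) and for Lgr4 0.46 (exact permutation p = 0.245, adjusted 0.549), and their rho was 0.81, 0.71 and 0.50 (adjusted permutation p = 0.174, 0.184 and 0.494). Within WT mice alone Lgr5 had r of 0.85 with the Paneth sum and within KO mice alone 0.98, and of the deviations from genotype means r was 0.92 (exact permutation p = 0.00694, adjusted 0.0463). Rnf43 had 0.95 within WT, 0.92 within KO and 0.91 as deviations (exact permutation p = 0.00347, adjusted 0.0463), and Znrf3 had 0.96, 0.72 and 0.83 (exact permutation p = 0.0278, adjusted 0.111). Without WT replicate 1 and KO replicate 2, r was 0.85 for Lgr5 (exact permutation p = 0.0319, adjusted 0.256), 0.58 for Rnf43 (exact permutation p = 0.211, adjusted 0.676) and 0.42 for Znrf3 (exact permutation p = 0.358, adjusted 0.758). With these 6 mice none of the 3 relations passed the adjusted threshold. The mice left out were the farthest from the median Paneth sum, so the lower r cannot show that the relations rested on them. With any 1 mouse left out r stayed at 0.86 to 0.97 for Lgr5 and 0.81 to 0.96 for Rnf43, and it ran for Znrf3 from 0.64 without WT replicate 1 (adjusted permutation p = 0.511) to 0.92 without KO replicate 3 (adjusted permutation p = 0.036). The adjusted p of Lgr5 and of Rnf43 was above 0.05 without replicate 1 or 2 of either genotype, and that of Rnf43 also without WT replicate 4. WT replicate 2 and KO replicate 1, with nearly equal Paneth sums, had Lgr5 levels of 6.06 and 5.36 FPKM. WT replicate 4 and KO replicate 4, also close in Paneth sum, had 10.6 and 8.07. WT replicate 3 and KO replicate 3, with Paneth sums of 31982 and 35259 FPKM, had 7.32 and 6.35. The KO minus WT differences of the 4 replicate numbers had r of 0.94 between Lgr5 and the Paneth sum, 0.79 for Rnf43, 0.63 for Znrf3 and 0.72 for Lgr4. The part of Paneth cell content in the lower Lgr5, Rnf43 and Znrf3 of KO crypts was not tested.

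Stem cell markers other than Lgr5 also had negative log2 fold changes in KO, and their sum, most of it Olfm4, did not follow Lgr5 between mice. All 14 crypt base columnar markers had negative log2 fold changes (median -0.28), 6 of them with an unadjusted p under 0.05 (Olfm4, Smoc2, Rgmb, Msi1, Cdca7 and Slc12a2), where 3.05% of all genes were lower at that p, and 0 passed the adjusted threshold. Their sum was 1661 to 1927 FPKM in WT and 1256 to 1557 in KO, without overlap. Olfm4 was at 1204, 1501, 1306 and 1207 FPKM in WT replicates 1 to 4 and 1137, 1134, 985 and 882 in KO replicates 1 to 4. Over the 8 mice the sum had r of 0.12 with Lgr5 (exact permutation p = 0.779, adjusted 0.859, rho 0.10), but of the deviations from genotype means r was -0.86 (exact permutation p = 0.00868, adjusted 0.0463). Olfm4 alone had an r of -0.94 with Lgr5 on that scale, as the mice of a genotype that were high in Lgr5 were low in Olfm4. Cd44 (-0.41), Prom1 (-0.35) and Cdca7 (-0.02) were also negative with Lgr5 on that scale. The rest of the list was positive, from 0.11 for Rgmb to 0.87 for Lrig1, with Ephb3 at 0.77, Tnfrsf19 at 0.73 and Smoc2 at 0.64. Between the sum and the other members r was 0.17 to 0.41 over all mice and -0.69 to -0.61 within genotypes, none past an adjusted p of 0.05. On differences within replicate numbers r with this sum was -0.89 to -0.83 for the 4 genes. Single stem cell markers spread over a wide range of r with Lgr5 over the 8 mice, with Lrig1 (0.92), Ephb3 (0.84), Smoc2 (0.79), Sox9 (0.72), Tnfrsf19 (0.71), Msi1 (0.63) and Slc12a2 (0.63) at one end and Prom1 (-0.01) and Cd44 (-0.13) at the other.

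Enterocyte and ileum markers had higher means in KO, and none passed the adjusted threshold. All 12 enterocyte markers had positive log2 fold changes (median 0.92), 4 with an unadjusted p under 0.05, and all 4 ileum markers, genes of bile acid uptake, had one (median 1.43), where 5.33% of all genes were higher at that p. The ileum markers summed to 84.5, 646, 346 and 568 FPKM in WT replicates 1 to 4 and to 643, 1186, 1011 and 1345 in KO replicates 1 to 4. WT replicate 1, with the lowest ileum sum, had the highest Rnf43 and Znrf3. Over the 8 mice the ileum sum had r of -0.80 with Znrf3 (exact permutation p = 0.0103, adjusted 0.054) and -0.79 with Rnf43 (exact permutation p = 0.0165, adjusted 0.054), with rho of -0.74 and -0.71 (adjusted permutation p = 0.184 each), -0.55 with Lgr5 (rho -0.45) and -0.39 with Lgr4 (rho -0.43). Without WT replicate 1 and KO replicate 4 these were -0.88, -0.73, -0.58 and 0.09, and without KO replicate 4 alone Znrf3 had -0.90 (adjusted permutation p = 0.00635). Without WT replicate 1 alone the value was -0.59 for Znrf3 and -0.62 for Rnf43 (adjusted permutation p = 0.511 each), the weakest with any 1 mouse left out. Of deviations from genotype means they were -0.57 and -0.61 for Znrf3 and Rnf43, with adjusted permutation p = 0.322 each. The enterocyte sum had r of -0.35 to 0.16 with the 4 genes, rho of -0.31 to 0.19 and adjusted permutation p-values of 0.627 to 0.876. On differences within the 4 replicate numbers r with the ileum sum was -0.82 to -0.76, and r with the enterocyte sum was 0.86 for Lgr4, 0.77 for Lgr5, 0.85 for Rnf43 and -0.08 for Znrf3. The position of the tissue along the intestine is not given beyond intestine, and its part in the differences was not tested.

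The other marker lists gave no adjusted call. All 6 epithelial markers were higher in KO (median log2 fold change 0.08), with an unadjusted p under 0.05 for Vil1 and Krt8. Of all genes tested, 5.33% were higher with such a p and 3.05% were lower. The epithelial markers summed to 2980 to 3158 FPKM in WT and 3405 to 3884 in KO, without overlap. Among the 6, only Krt8 had every KO mouse above every WT mouse (1781 to 2060 against 1476 to 1627 FPKM). Each of the others overlapped between genotypes. Of 7 goblet cell markers 6 were higher in KO (median log2 fold change 0.24), with an unadjusted p under 0.05 for Fcgbp and Zg16, which were higher, and for Spink4, which was lower. Of 8 enteroendocrine markers 5 were lower (-0.08), and Sct, which was higher, had such a p. The 4 tested tuft cell markers were lower (-0.57), none at that p. Of 10 immune cell markers 7 were higher (median 0.74), with an unadjusted p under 0.05 for Cd3e, Cd8a and Gzma, all higher, against the 5.33% of all genes given before, and the sum of the list was 24 to 45.8 FPKM in WT and 40.2 to 69.9 in KO. Of 10 proliferation genes 7 were lower (median -0.02), the 6 proximal intestine markers had a median of 0.03, and the 2 tested colon markers one of 0.25, with 0 at that p in these lists. The part of these cell types in the differences was not tested.

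**Figure D4:**
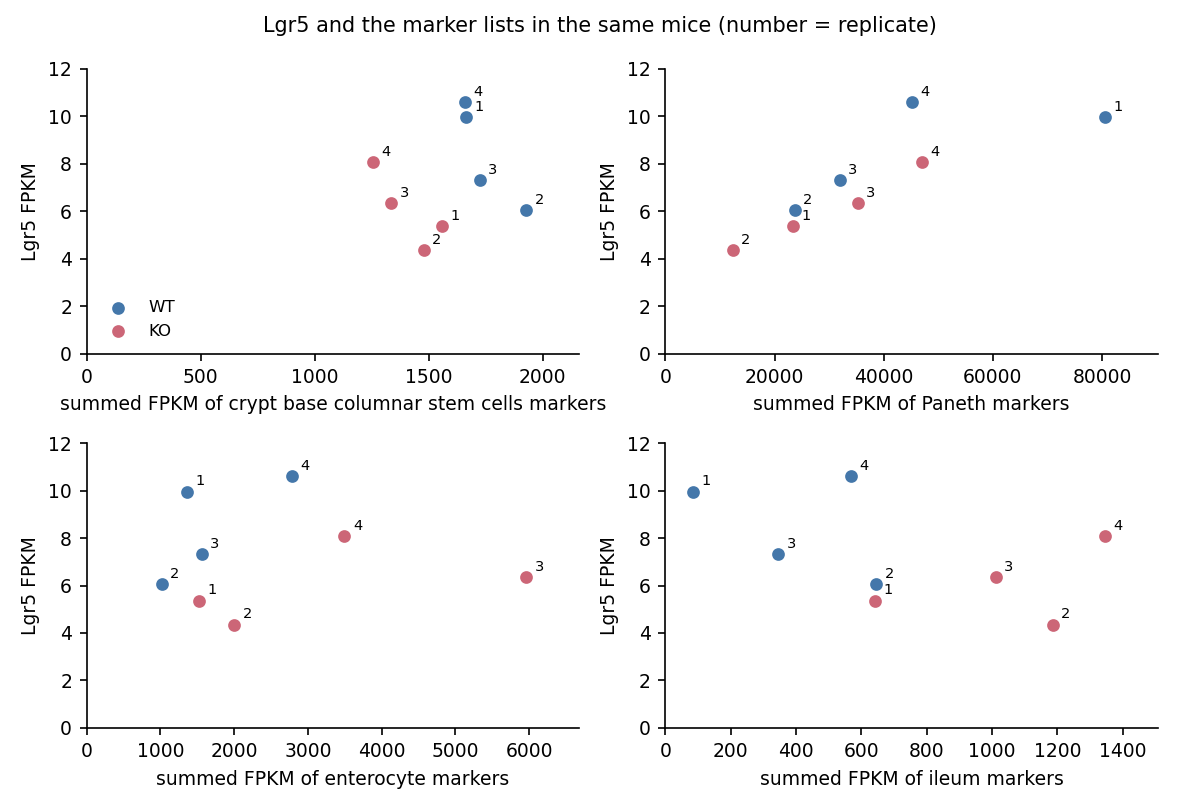
Lgr5 FPKM against the summed FPKM of stem cell, Paneth, enterocyte and ileum markers in the same mice, with WT in blue, KO in red and the replicate number beside each point. Lgr5 rises with the Paneth sum along one band that holds mice of both genotypes (r = 0.92 on log scales), while in the stem cell panel the genotypes form separate bands.

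The ligands of LGR4 and LGR5 were nearly absent from these crypts. Rspo1 was at 0 to 0.342 FPKM, Rspo3 at 0 to 0.0322, Rspo4 at 0 to 0.0177, and Rspo2 had no counts in any mouse. Together the 4 R-spondins reached at most 0.373 FPKM, in WT replicate 4, and none passed the filter on low counts. Lgr6, the third R-spondin receptor, had 0 or 1 count per mouse. The glycoprotein hormone and relaxin receptors of the same leucine-rich repeat family were at or near 0 as well, with Lgr6 included in a sum of at most 0.0419 FPKM.

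Relatives of RNF43 and ZNRF3 lay on both sides of 0. Of 10 other transmembrane RING ligases with a protease-associated domain, 7 were tested, 2 were lower and 5 higher in KO (median log2 fold change 0.05), and 0 had an unadjusted p under 0.05. The most abundant, Rnf128, was at 59.6 ± 4.93 FPKM in WT and 68.9 ± 10.5 in KO (SD, n = 4 each). In FPKM it thus exceeded Rnf43 in all mice.

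Frizzled receptors and LRP co-receptors, the substrates of the ligases and their partners, gave no call. Of 12 genes 10 were tested, 7 were lower and 3 higher, the median log2 fold change was -0.07 and 0 had an unadjusted p under 0.05. Fzd5, the leading Frizzled, was at 33.7 ± 1.68 FPKM in WT and 35.3 ± 3.81 in KO (SD, n = 4 each), with a log2 fold change of 0.06. Lgr4 and Fzd5 were thus at like levels. Dishevelled and casein kinase 1 genes, which act next in the cascade, had a median of -0.02 over 9 genes, and 0 were under that p. Their most abundant gene by the mean over all mice, Csnk1g2, was at 35.9 ± 2.21 FPKM in WT and 37.4 ± 2.09 in KO (SD, n = 4 each). Csnk1d was at a like level, with means of 36.9 FPKM in WT and 36.3 in KO.

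WNT ligands in these crypts were mostly Wnt3, which Paneth cells make. Of 19 ligand genes 7 were tested, with 5 lower, 2 higher, a median log2 fold change of -0.28 and 0 at an unadjusted p under 0.05. Wnt3 was at 8.51, 3.85, 4.61 and 6.76 FPKM in WT replicates 1 to 4 and at 2.91, 2.92, 6.26 and 6.73 in KO replicates 1 to 4. The genotypes overlapped, and as with the Paneth sum the highest value was in WT replicate 1.

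Other feedback regulators and secreted inhibitors of WNT signalling numbered 17, of which 9 were tested, 6 were lower and 3 higher (median -0.47). Sfrp5, a secreted WNT antagonist, was the 1 gene with an unadjusted p under 0.05 (log2 fold change -0.68, standard error 0.30, edgeR adjusted p = 0.586). Its WT values were 8.89, 21.7, 10.7 and 20.9 FPKM and its KO values 12.9, 8.82, 8.39 and 8.98, so that WT replicates 1 and 3 lay among the KO mice. Axin2, a WNT target and feedback gene like Rnf43 and Znrf3, was at 41.5 ± 5.12 FPKM in WT and 39.5 ± 4.43 in KO (SD, n = 4 each), with a log2 fold change of -0.08 (standard error 0.11). The beta-catenin core had 11 of 13 genes tested, 4 lower and 7 higher, with a median of 0.04 and 0 under that p. Its leading gene Ctnnb1, beta-catenin itself, was at 120 ± 2.19 FPKM in WT and 131 ± 9.51 in KO (SD, n = 4 each), a log2 fold change of 0.12.

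**Figure D5:**
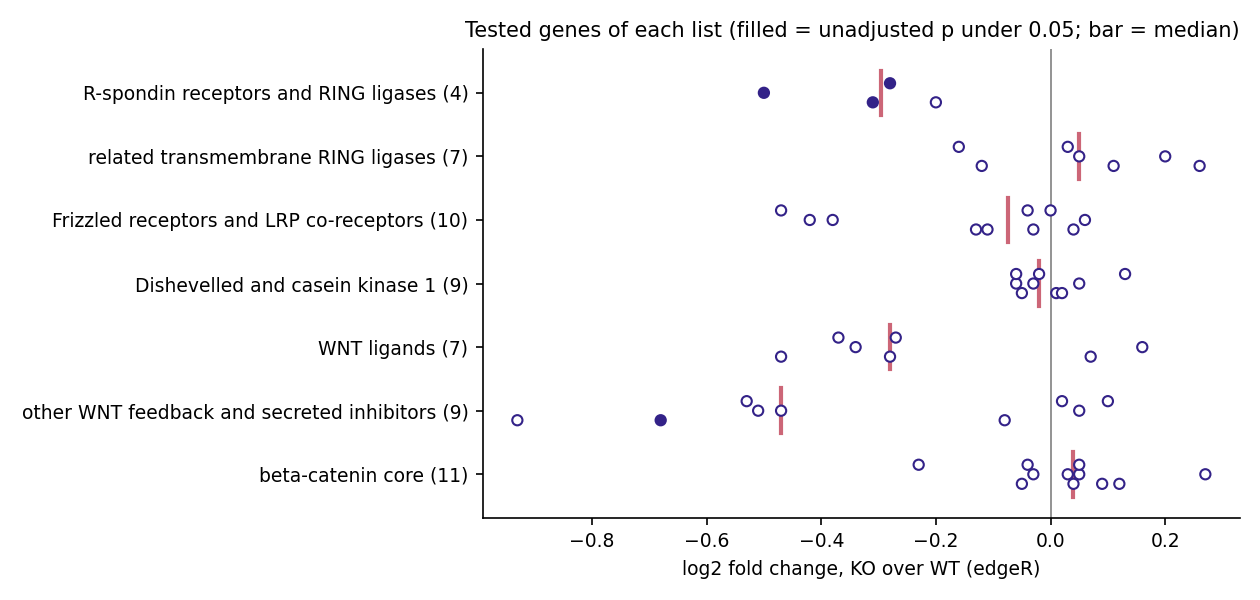
Log2 fold change of KO over WT for the tested genes of each list, with the number of tested genes in brackets. Filled points have an unadjusted edgeR p under 0.05, and red bars are medians. The 4 receptors and ligases all lie left of 0, with 3 filled. The list of other WNT feedback genes and secreted inhibitors has a median of -0.47, with Sfrp5 filled. The lists of related ligases, Frizzled and LRP receptors, Dishevelled and casein kinase 1, WNT ligands and the beta-catenin core hold no filled point. Fzd2, at -0.38, is open with an unadjusted edgeR p of 0.0521.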

How the data were processed

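For 4 WT and 4 KO mice the authors deposited counts of reads on each gene, which are not normalized. They also deposited FPKM values, which equal the counts divided by gene length and a library total that was 96.05% to 105.1% of the summed counts. Per the submitters' processing notes, CASAVA, HISAT2 2.0.5 and featureCounts 1.5.0-p3 were used, and the use of strand is not given in the sources used here. The libraries were sequenced on a NovaSeq instrument at Novogene. Deposited group means, fold changes, p-values and adjusted p-values of the authors' own comparison were not used.

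Counts were tested with edgeR 4.0.16 in R 4.3.3 (filterByExpr with a minimum count of 10, TMM, quasi-likelihood test, genotype as the only term, all 8 mice, Benjamini-Hochberg over 16109 genes). The prior degrees of freedom were 3.34 and the common biological coefficient of variation 0.237. Alternatives were DESeq2 1.42.0, limma 3.58.1 on log2(FPKM + 1) and log2(FPKM + 0.1), other scaling factors, other filters, robust dispersion, sex as a covariate, a replicate block and leaving out each mouse. Correlations used log2 CPM with a prior count of 2, with two-sided exact tests over all pairings. The edgeR script was tested on simulated data. The search of the Lgr4 3'UTR is not reported here. The 4 genes and the lists were chosen with earlier results of these data known, and the correlations with marker sums and those of differences within replicate numbers were added after the data were seen. Named genes are the 4 members, Mex3a, all R-spondins and Lgr6, from each other pathway list those with an unadjusted p under 0.05 and the most abundant, and the 5 genes most correlated with each member. Single cell type markers were named after their values were seen.

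Same-numbered WT and KO mice deviated together from their genotype means, with correlations of 0.129, 0.501, 0.141 and 0.294 over all genes and 0.0913, 0.473, 0.09 and 0.248 over autosomal genes, partly through shared sex. The replicate numbers were therefore used as pairs in the block fit, the sign flips and the differences within numbers. The main fit and the other permutation tests did not use them. Whether a number stands for a litter is not given. Libraries of a genotype differed beyond sampling noise (chi-square of 23.4 to 86.3 per degree of freedom). Depth lay between 20324184 and 30654105 counts per mouse. P-values measure the spread between single mice.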

Additional observations from a re-analysis of the deposited data

How the results depend on the processing

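No member's call at the adjusted threshold changed in any of 18 alternatives, and the 4 log2 fold changes stayed negative (Lgr4 -0.26 to -0.10, Lgr5 -0.67 to -0.37, Rnf43 -0.36 to -0.21, Znrf3 -0.38 to -0.24). The number of genes with an adjusted p under 0.05 was 93 with DESeq2, 2 with no filter on low counts, 0 with at least 10 counts in every mouse, 0 with the replicate block, 4 with sex as a covariate, 2 with limma on log2(FPKM + 1), 2 with limma on log2(FPKM + 0.1), and 0 to 4 with 1 mouse left out (4 without WT replicate 2). The cause was not tested, except that 10 counts in every mouse removes Mex3a. With 1 mouse left out, 355 to 828 genes were lower at an unadjusted p under 0.05 (828 without KO replicate 1), and 1 to 3 of the 4 members (1 without WT replicate 1, without WT replicate 4 or without KO replicate 2). With the replicate block 665 genes and 3 members were lower at that p, and the block changed no member's call. The correlations of Lgr5 with Rnf43, Lgr5 with Znrf3 and Rnf43 with Znrf3 lost an adjusted p under 0.05 as deviations from genotype means (0.87, 0.78 and 0.77) and without the 2 farthest mice (0.84, 0.86 and 0.70), the latter with 6 mice only. With 1 mouse left out that of Lgr5 with Znrf3 was 0.81 to 0.91 (0.81 without KO replicate 2). The KO minus WT log2 ratio of Lgr4 to Rnf43 was -0.04 to 0.19 with 1 mouse left out (-0.04 without KO replicate 2) and that of Rnf43 to Znrf3 -0.02 to 0.07 (-0.02 without KO replicate 3).

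Of the correlations with marker sums, those with the stem cell sum, most of it Olfm4, turned negative as deviations from genotype means (Lgr4 -0.61, Lgr5 -0.86, Rnf43 -0.68, Znrf3 -0.69). Single markers of that list ran on this scale from -0.94 (Olfm4) to 0.87 (Lrig1) with Lgr5. They ran from -0.79 (Olfm4) to 0.87 (Ephb3) with Rnf43 and from -0.78 (Olfm4) to 0.68 (Sox9) with Znrf3. Most were positive with these 3 genes and negative with Lgr4, where they ran from -0.92 (Cd44) to 0.65 (Prom1). With the enterocyte sum Rnf43 turned to 0.49 and Znrf3 to 0.14 as deviations, and Rnf43 to 0.11 without the 2 farthest mice. With the ileum sum Lgr4 turned to 0.09 without the 2 farthest mice. Leaving out 1 mouse gave Lgr4 -0.07 to 0.35, Lgr5 -0.0045 to 0.30 and Rnf43 -0.22 to 0.17 with the enterocyte sum and Lgr4 -0.68 to 0.02 with the ileum sum. With the Paneth sum it gave Lgr5 0.86 to 0.97 and Rnf43 0.81 to 0.96, and the adjusted p was above 0.05 for Lgr5 without replicate 1 or 2 of either genotype and for Rnf43 without those or WT replicate 4.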
